A study of Drosophila melanogaster with 2 samples.

Results

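The genes described here are 9 members of the insulin and TOR growth pathway of Drosophila melanogaster and its translation regulators: InR, chico, Akt, foxo, Tor, S6k, Thor, Lk6 and larp. They are 9 of 13945 protein-coding genes on the major chromosome arms. They were selected on pathway membership by name, with the peak signals of these same lists known, so their peak ranks are given as a description and nothing was tested. The data are peak lists from ChIP-seq, the sequencing of DNA recovered with an antibody from sheared chromatin, for CG17806, a protein of the zinc-finger class, in whole pupae aged 24 hours. The flies are a transgenic line that stably expresses CG17806 with GFP fused at its C-terminal end, and the antibody recognised GFP. Neither the promoter that drives the fusion nor the event from which the age was counted is stated in the labels. All samples form 1 group of 2 biological replicates with the same line, stage and antibody, and no untreated or untagged group was analysed here.

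A peak list gives, for each region where reads pile up, an interval, a summit (the position of highest signal) and a signal. Here the summit is given as a genome browser counts it, on build dm6. Rank 1 is the peak of highest signal in its list. The replicate 1, replicate 2 and pooled lists hold 30000 peaks each, and the list kept by the irreproducible discovery rate (IDR) procedure holds 7645, which are the 7645 highest-ranked pooled peaks. A rank is therefore the same in the IDR and pooled lists. In the pooled list 37.3% of peaks have a q-value above 0.05, and in the replicate 1 and replicate 2 lists 20.1% and 57.4%. All IDR peaks carry the same −log10 q, 4.23. Low-ranked peaks outside that list are thus the weaker calls, and read depth is unknown because the lists hold no read counts. Whole pupae mix many tissues, so binding in a few cells and weak binding in many cannot be told apart.

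Insulin-like peptides bind the receptor InR, after which the adaptor chico passes the signal to phosphoinositide 3-kinase, and the kinase Akt then holds the transcription factor foxo in the cytoplasm. The kinase Tor, which senses amino acids and energy as well, phosphorylates S6k and Thor and so promotes translation. Flies grow as larvae under the control of this pathway, and in poorly fed animals foxo enters the nucleus and raises the transcription of Thor and InR.

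At a distance of at most 500 bp from a start site, IDR summits were found for 3 of the 9 genes, foxo, Tor and larp. Of all protein-coding genes 19.5% had such a summit, and genes with several promoters had one more often. The share was 37.2% for genes with 2 or more promoters, and 2 of the 5 members of that kind had one. Among genes with 1 promoter the share was 16.3%, and 1 of 4 members had one. A promoter here is a group of start sites with gaps of at most 500 bp, numbered P1 onwards from the 5′ end, and the 9 genes have 18 of them.

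In all, the 9 genes held 18 IDR summits, 4 at promoters, 13 in introns and 1 in an exon. Lk6 and larp had the strongest, at ranks 15 and 16. InR had 6, foxo and larp 4 each, Lk6 2, and Tor and S6k 1 each. No IDR summit lay at a promoter or inside chico, Akt or Thor.

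The sequences below are the 50 bp on each side of the summit, on the strand of the gene. They include the strongest IDR summit of each gene that has one, and some of the weaker ones. Windows of the foxo peak of rank 2107, the InR peaks of ranks 4054 and 5266 and the larp peak of rank 5935 are left out. These windows touch no annotated exon either. Capitals mark every match, on either strand, to the words TATAAA (the TATA box), TATCGATA (the DNA replication-related element), GAGAG (bound by the GAGA factor), CACGTG (the E-box), TGTTTAC (a forkhead word) and AAAAAAAA. Matches to different words could overlap, and TATAAA reads TTTATA on the other strand. Sequence is from the Release 6 assembly of RefSeq, and only windows that touch no annotated exon are shown.

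Lk6 intron peak of rank 15, chr3R:11761001-11761101, minus strand: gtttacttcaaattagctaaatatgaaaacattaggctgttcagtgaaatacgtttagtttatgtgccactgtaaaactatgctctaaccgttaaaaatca
larp P5 peak of rank 16, chr3R:28326540-28326640, minus strand: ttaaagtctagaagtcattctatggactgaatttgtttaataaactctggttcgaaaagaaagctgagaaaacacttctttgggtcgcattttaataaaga
larp intron peak of rank 1816, chr3R:28328905-28329005, minus strand: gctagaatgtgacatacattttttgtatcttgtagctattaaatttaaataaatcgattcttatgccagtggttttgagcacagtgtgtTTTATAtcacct
larp P2 peak of rank 3801, chr3R:28335718-28335818, minus strand: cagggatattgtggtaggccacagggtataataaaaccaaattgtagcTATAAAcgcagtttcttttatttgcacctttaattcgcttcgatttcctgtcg
foxo intron peak of rank 1052, chr3R:14061522-14061622, plus strand: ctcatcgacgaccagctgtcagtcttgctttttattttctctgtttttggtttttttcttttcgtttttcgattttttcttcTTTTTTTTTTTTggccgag
foxo intron peak of rank 1057, chr3R:14062121-14062221, plus strand: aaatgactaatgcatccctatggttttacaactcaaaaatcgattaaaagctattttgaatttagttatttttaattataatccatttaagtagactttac
foxo P1 peak of rank 2596, chr3R:14056620-14056720, plus strand: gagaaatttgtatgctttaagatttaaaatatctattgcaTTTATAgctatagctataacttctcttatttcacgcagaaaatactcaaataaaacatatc
Tor P1 peak of rank 2340, chr2L:13004239-13004339, plus strand: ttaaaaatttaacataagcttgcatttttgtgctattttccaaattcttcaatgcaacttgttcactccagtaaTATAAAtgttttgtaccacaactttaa
S6k intron peak of rank 1588, chr3L:5808222-5808322, minus strand: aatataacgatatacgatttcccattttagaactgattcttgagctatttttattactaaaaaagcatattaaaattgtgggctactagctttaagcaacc
InR intron peak of rank 1533, chr3R:21605368-21605468, minus strand: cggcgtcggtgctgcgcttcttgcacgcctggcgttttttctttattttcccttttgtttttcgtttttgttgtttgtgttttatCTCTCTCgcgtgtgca
InR intron peak of rank 1861, chr3R:21608810-21608910, minus strand: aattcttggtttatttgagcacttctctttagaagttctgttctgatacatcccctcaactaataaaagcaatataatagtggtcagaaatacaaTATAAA

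TATAAA was found in 9 of the 18 windows of 101 bp, while 25.2% of all 7645 IDR windows of this length hold it. GAGAG was in 3 of the 18 (8.15% of all windows) and AAAAAAAA in 1 (10.3%), in a run of T at the foxo intron peak of rank 1052. No match to TATCGATA, CACGTG or TGTTTAC was found, words that 0.549%, 0.523% and 2.34% of all IDR windows hold. The windows of the 2 strongest peaks, of Lk6 and larp, hold none of these words. Base composition was close to that of the whole list. The median AT content within 50 bp of the summit was 69.3% (53.5% to 76.2%, n = 18), and that of all IDR summits 70.3%. In 14 of the 18 the centre was richer in A and T than the sequence around 250 bp away, compared with 87.7% of all IDR summits. The lowest values were those of InR peaks of ranks 1533 and 5266, at 54.5% and 53.5%.

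**Figure D1:**
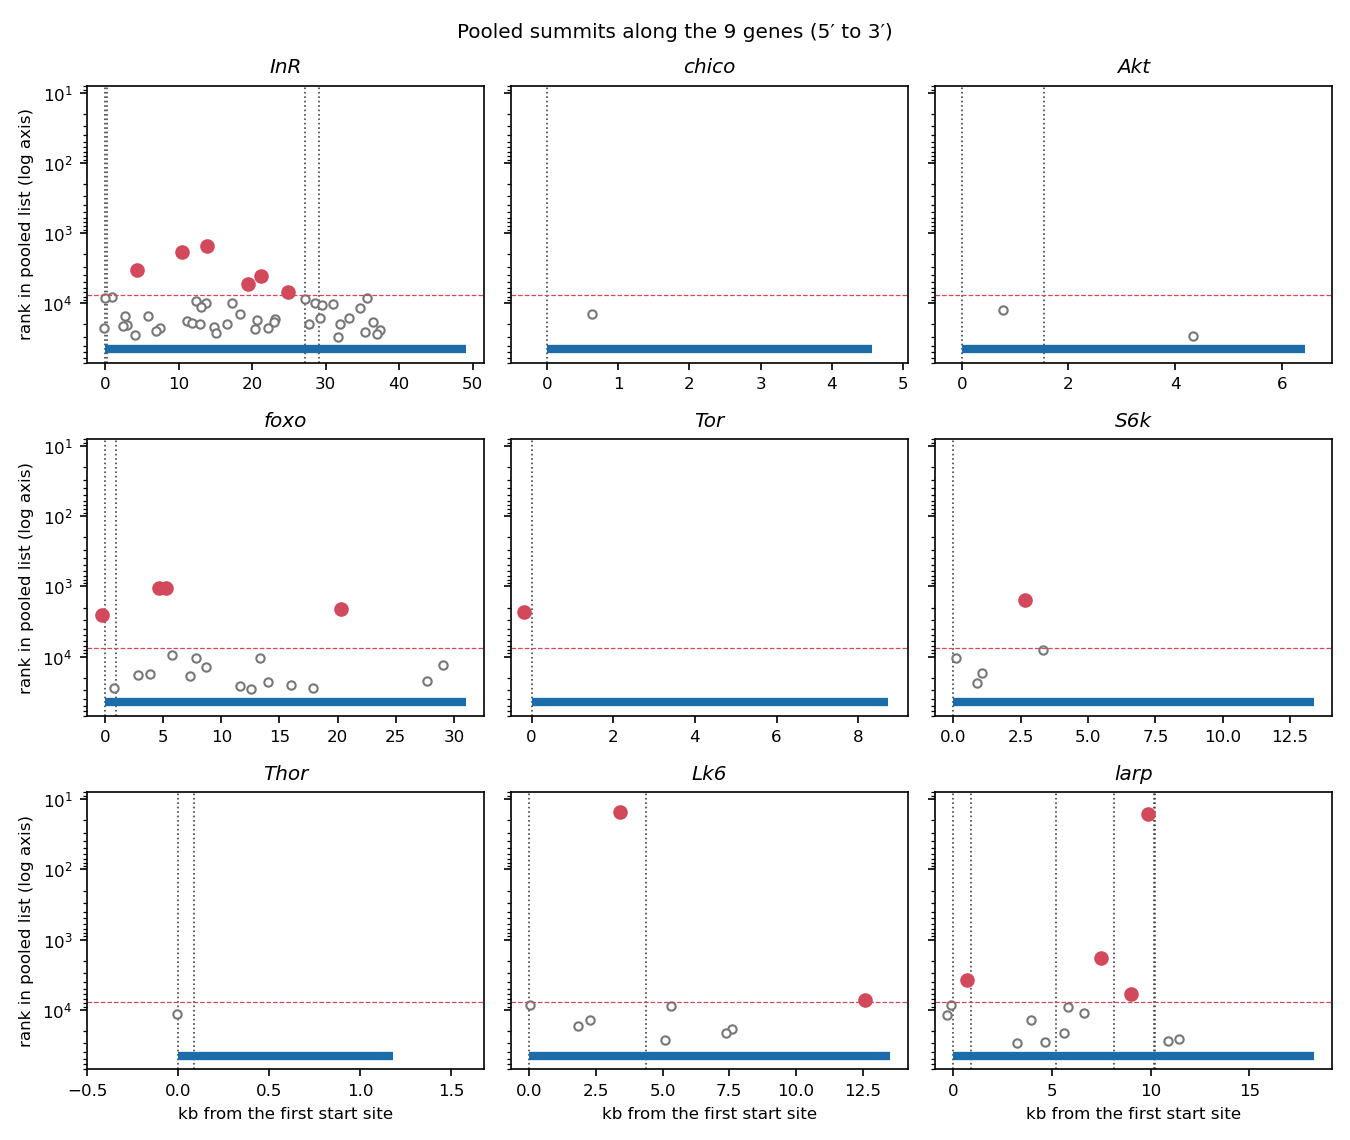
Rank of each pooled summit (vertical, log axis, strongest at the top) against its distance from the first start site in kb, for the 9 genes, 5′ to 3′. Red points are in the IDR list, open points only in the pooled list, dotted lines are start sites, the blue bar is the gene and the dashed line is rank 7645; Lk6 and larp each have 1 summit near the top, at ranks 15 and 16.

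InR, the insulin receptor, is the longest of the genes at 49.1 kb, lies on arm 3R between 21570248 and 21619321, and has 3 promoters. Its 6 IDR summits all lay in introns, 3 in the intron between positions 21603574 and 21618726 (15153 bp) and 3 in the one between 21588010 and 21603019 (15010 bp). The strongest, at 21605418, ranked 1533 in the pooled list, 1217 in replicate 1 and 2798 in replicate 2. The next, at 21608860, ranked 1861, 2084 and 1445, so the replicates put these peaks in opposite order. The remaining 4 ranked 3398 (21615047), 4054 (21598125), 5266 (21599827) and 6926 (21594475). Those of ranks 3398 and 6926 are in no exon of InR, but an annotated exon lies at or within 50 bp of each.

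None of the 3 InR promoters had an IDR summit, but all were in the pooled list. P1 had its strongest summit 29 bp downstream of a start site, at rank 8470, and its strongest in replicates 1 and 2 ranked 7152 and 7726, the latter 124 bp upstream of a start site. At P2 the summit lay 5 bp upstream, at rank 8619 and at 6930 in replicate 1, with none in replicate 2. A start site of the non-coding RNA lncRNA:Irar is also within 500 bp of these P2 summits. P3 had ranks of 10546, 11061 and 7916 in the pooled list, replicate 1 and replicate 2. In the pooled list InR held 47 summits, 41 of them intronic, and 18 of the 47 had a q-value above 0.05. The last 11.6 kb of the gene held no pooled summit. Replicate 1 had one there at 21581438, at rank 17941, and replicate 2 one at 21581858, at rank 26659.

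chico, the insulin receptor substrate that links the receptor to phosphoinositide 3-kinase, lies on 2L from 10242512 to 10247078. It had no summit within 500 bp of its single start site in any of the 4 lists. A pooled summit 640 bp downstream of it, in sequence that is 5′ UTR in some transcripts and intron in others, ranked 14199, and one 627 bp downstream ranked 11643 in replicate 1. Replicate 2 had no summit in the gene.

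Akt, the kinase that inhibits foxo, lies on 3R from 16099228 to 16105670. In replicate 2 a summit 268 bp upstream of its P1 ranked 11300, and Mhcl, which encodes a myosin-like protein, has a start site equally within 500 bp. No summit lay at P1 in replicate 1 or the pooled list, and none at P2 in any list. Its strongest pooled summit, in the intron 757 bp upstream of P2, ranked 12335.

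foxo, the transcription factor that insulin signalling keeps inactive, lies on 3R from 14056945 to 14087978 and has 2 promoters. The IDR summit 275 bp upstream of P1 ranked 2596 in the pooled list, 2490 in replicate 1 and 2875 in replicate 2. P2, which serves 1 transcript, had a summit 215 bp upstream at rank 28225 in the pooled list and 16228 in replicate 1, and none in replicate 2. The peaks were thus at P1, which serves 4 of the 5 transcripts, and much weaker at P2.

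The strongest foxo peaks were intronic. Those at 14061572 and 14062171, in the same intron of 8433 bp, ranked 1052 and 1057 in the pooled list. In replicate 1 they ranked 687 and 1070, and in replicate 2 they ranked 2495 and 979. The order of the pair therefore differed between replicates, and the first had the largest ratio of replicate ranks of the 18 summits, 3.63. Another, at 14077238 in an intron of 12193 bp, ranked 2107, 2192 and 2101. In the pooled list foxo had 17 intronic summits, and 8 of its 19 summits in all had a q-value above 0.05.

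Tor, the kinase of the TOR complexes, is annotated as mTor and lies on 2L from 13004480 to 13013197. Its only summit in any list was at its promoter, 191 bp upstream of the start site in the pooled list, at rank 2340. It ranked 3821 in replicate 1 and 1094 in replicate 2, a ratio of 3.49, with summits 189 and 213 bp upstream. The peak is also at the promoter of Vha68-1, which encodes a subunit of the proton pump of lysosomes, and the start site of Vha68-1 is nearer. The 8.72 kb of Tor itself held no pooled summit.

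S6k, the kinase that TOR activates and that phosphorylates ribosomal protein S6, lies on 3L from 5797549 to 5810931. Its 1 IDR summit was 2659 bp downstream of the start site, in an intron of 2301 bp, at rank 1588, with ranks of 1738 and 1386 in replicates 1 and 2. A second intronic summit at 3316 bp ranked 8195 in the pooled list, 8795 in replicate 1 and 7243 in replicate 2. At the promoter, a summit 91 bp downstream of the start site, also within 500 bp of one of kri, ranked 10478, 9269 and 20289. No pooled summit lay in the last 10.1 kb of the gene. Replicate 1 had an intronic summit there, 8585 bp downstream of the start site, at rank 13238.

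Thor encodes the fly 4E-BP, which binds the cap-binding protein eIF4E and so limits translation, and is a known target of foxo. It lies on 2L from 3478434 to 3479612. Its promoter had a summit 4 bp upstream of a start site at rank 11549 in the pooled list, outside the IDR list. In replicate 1 a summit lay 53 bp upstream, at rank 9384. The summit of replicate 2, 77 bp downstream of the other start site, was over 100 bp from both of these and ranked 23346, with a −log10 q of 0.311.

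Lk6, the fly homologue of the mammalian MNK kinases, phosphorylates eIF4E. It lies on 3R from 11750931 to 11764457 and has 2 promoters. The peak of rank 15 spanned 11760811 to 11761490 (680 bp), the widest of the 18, with its summit at 11761051. It ranked 16 in replicate 1 and 13 in replicate 2, with summits 1 and 9 bp away. The summit lies in an intron of 6991 bp of the longer transcript, 972 bp upstream of P2, so no IDR summit counted at a promoter within 500 bp.

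The promoters of Lk6 had summits of lower rank. P1 had one 48 bp downstream at rank 8664, with ranks of 7117 in replicate 1 and 27336 in replicate 2, and P2 had one in replicate 1 at rank 22897 with no partner in replicate 2 or the pooled list. A second IDR summit of Lk6, at 11751865 in the 3′ UTR, ranked 7355 and was the last of the members within the IDR list. The first outside it was an InR summit of rank 8099.

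larp, the fly homologue of LARP1, binds messenger RNAs and in mammals represses messages that begin with a pyrimidine tract when TOR is inactive. It lies on 3R from 28318162 to 28336440 and has 5 promoters, more than any other of the 9 genes. The strongest peak was at P5, from 28326275 to 28326884 (610 bp), with its summit 326 bp upstream of a start site at rank 16. It ranked 14 in replicate 1 and 19 in replicate 2, at distances of 325 and 344 bp. P5 serves 2 of the 7 transcripts.

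P2, which also serves 2 transcripts, had an IDR summit 227 bp upstream at rank 3801, with ranks of 4821 and 2720. P1 had ranks of 8625, 9991 and 6681 in the pooled list, replicate 1 and replicate 2. A start site of the antisense RNA asRNA:CR46104 is also within 500 bp of these P1 summits. P3 had ranks of 21184 and 15194 in the pooled list and replicate 1 and none in replicate 2. P4 had none but a summit of rank 24606 in replicate 2. Of the 5 promoters of larp, 2 thus had IDR summits.

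The other IDR summits of larp were intronic. One lay 672 bp upstream of P4 and ranked 1816, 1934 and 1578, the nearest outside the limit of 500 bp, with P5 at 326 bp the nearest inside. Another lay 862 bp downstream of P4 and ranked 5935, 6158 and 6417. A further IDR summit, of rank 3139, lay 503 bp beyond the 3′ end of larp and was not counted. No pooled summit fell in the last 6.86 kb of the gene.

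**Figure D2:**
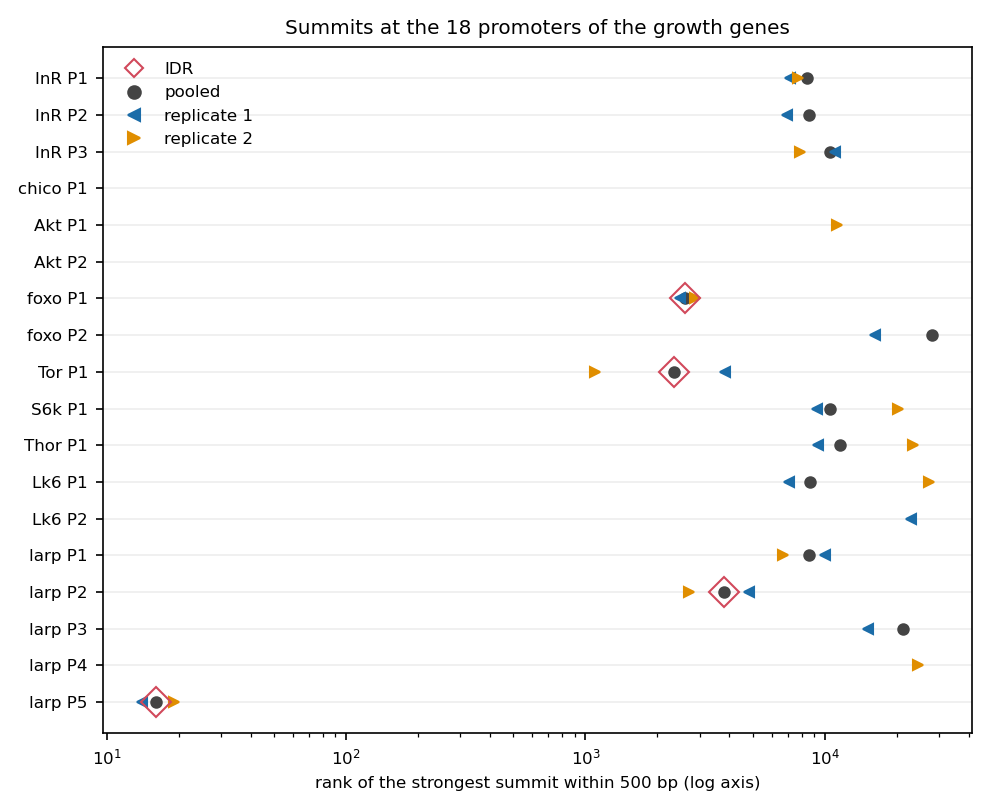
Rank of the strongest summit within 500 bp of each of the 18 promoters (horizontal, log axis) in the IDR, pooled, replicate 1 and replicate 2 lists. Diamonds, the IDR list, are at foxo P1, Tor P1, larp P2 and larp P5, and larp P5 stands far to the left at rank 16.

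In the lists of 30000 peaks the promoters of most members had a summit. In the pooled list 7 of the 9 genes had one, against 45.3% of all protein-coding genes. The count was 7 in replicate 1, where the share of all genes was 47.2%, and 8 in replicate 2, where it was 42.1%. In replicate 2 the only promoter summits of S6k, Thor and Lk6 had a −log10 q of 0.446, 0.311 and 0.195. Their q-values are thus above 0.05, and the share of all genes includes such weak calls too. The promoters with any summit numbered 13 of 18 in the pooled list, 14 in replicate 1 and 12 in replicate 2. These counts include the 4 promoters with IDR summits. No share over the promoters of all genes was computed, so neither these counts nor the 4 can be set against one. The shares of all genes in these lists were not split by number of promoters. Of the 9 members 5 have 2 or more promoters, and genes of that kind had an IDR promoter summit more often.

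All 18 IDR summits of the 9 genes had a partner at most 100 bp away in each replicate, as did 92.3% of all 7645 IDR summits. The IDR procedure itself compares the replicates, so this share is no separate support. Of the 99 pooled summits of the 9 genes, 40 had partners in both (40.4%), and of all pooled summits 43.8%. The ratio of the higher to the lower replicate rank had a median of 1.33 over the 18, against 1.34 over all IDR summits with partners, close to each other.

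**Figure D3:**
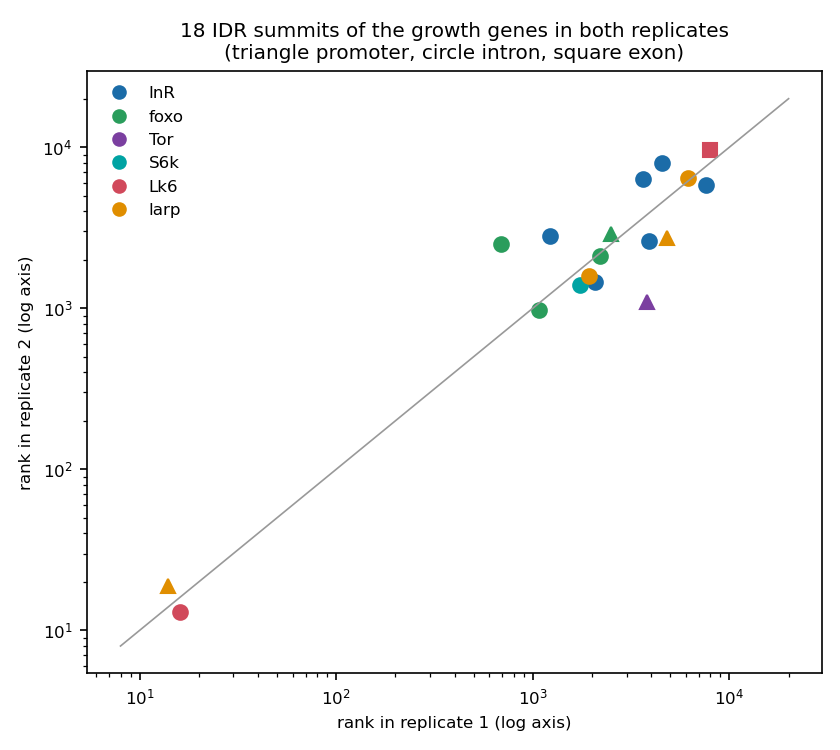
Rank in replicate 1 (horizontal) and replicate 2 (vertical), both log axes, of the 18 IDR summits of the growth genes, coloured by gene and shaped by place; the line marks equal ranks. The Lk6 intron peak and the larp P5 peak lie apart at ranks of 13 to 19, and the foxo peak of pooled rank 1052 and the Tor promoter lie farthest from the line.

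The genes with intronic IDR summits were the longer ones. The 5 members of at least 10 kb (InR, foxo, larp, Lk6 and S6k) all had one or more, against 45.2% of the 1977 protein-coding genes of that length, and the 4 shorter members had none, against 2.8% of shorter genes. The 10 kb limit was chosen after the lengths were seen. Per 10 kb these 5 longer members ranged from 0.739 in Lk6 to 1.22 in InR. The 6 of InR were matched or exceeded in 160 of 13945 protein-coding genes, InR included, and the 3 of foxo in 431. These are genes of all lengths, 11968 of them under 10 kb. The counts of InR and foxo are thus not set against genes of like length.

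**Figure D4:**
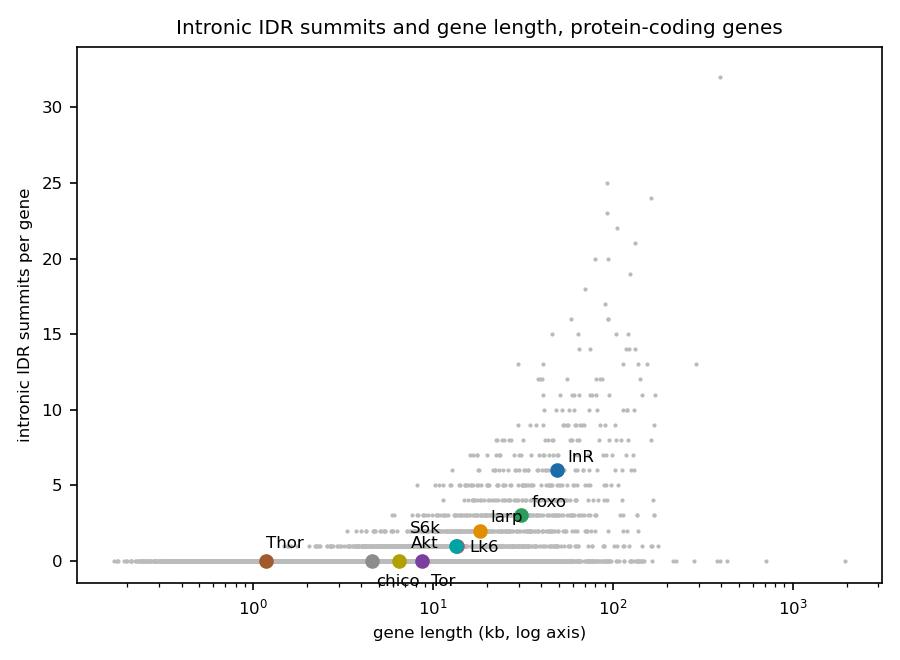
Intronic IDR summits per gene (vertical) against gene length in kb (horizontal, log axis) for all protein-coding genes (grey) and the 9 growth genes (coloured, labelled). InR with 6 and foxo with 3 stand at 49.1 and 31.0 kb, and Lk6 and S6k share a place at 1 summit.

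Among 5347 protein-coding genes with a summit in all of the replicate 1, replicate 2 and pooled lists, those whose best ranks were most like those of Lk6 were larp, osa and CG32772, by distance in log10 rank over these 3 lists (0.177, 0.197 and 0.21). For larp they were osa, Lk6 and CG32772 (0.0457, 0.177 and 0.179). The best ranks of osa, which encodes a subunit of the Brahma chromatin remodelling complex, were 15, 20 and 17 in replicate 1, replicate 2 and the pooled list.

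Other genes of the insulin and TOR pathway, 69 in number, gave a wider view. Promoters of 21 of them (30.4%) had an IDR summit, where the share of all protein-coding genes is 19.5%. That share was 37.2% for genes with 2 or more promoters and 16.3% for those with 1. The 69 were not split in this way, so the 21 are not set against genes of like promoter number. In an intron 13 of the 69 had an IDR summit, where the share of all protein-coding genes is 8.81%. Of the 13, 11 were among the 19 listed genes of at least 10 kb and 2 among the 50 shorter ones. Of all protein-coding genes of these lengths 45.2% and 2.8% had one. By role, an IDR summit at a promoter was found for 1 of 10 ligands and binding proteins and 1 of 3 receptor adaptors. It was found for 5 of 8 genes of the phosphoinositide 3-kinase and AKT group, a mixed one that also holds sgg, step, melt and trbl. For the TSC and Rheb group it was 1 of 3. Such promoter summits were at 8 of 18 genes of nutrient and energy sensing and 5 of 22 of translation and other outputs. None of 5 genes of the TOR complexes had one at a promoter, though 1 had IDR summits in introns. These groups are small, and the list was written with results of these data known.

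Upstream of AKT the bound genes were Ilp6 (rank 7524), a ligand made by the fat body, drk (5090), an adaptor, Pi3K21B (1905), the regulatory subunit of phosphoinositide 3-kinase, and step (4824), an activator of small GTPases. sgg (413) is the fly GSK3, and melt (2149) a membrane-associated modulator of the pathway. Rheb (4368) is the GTPase that activates TOR. Except at sgg, which ranked highest, the summits of the genes named here ranked from 1905 to 7524. Those of drk, step and Rheb were shared with the promoter of another protein-coding gene.

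Among the genes of nutrient and energy sensing, summits lay at alc (rank 206) and SNF4Agamma (588), subunits of the AMP-activated kinase, and at Lkb1 (2382), which activates it. They lay as well at Sesn (220), a stress-induced inhibitor of TOR, at Wdr24 (324) and Wdr59 (4667) of the GATOR2 complex, at the amino acid transporter path (6739) and at scyl (5223), an inhibitor of TOR under low oxygen. Another protein-coding gene shares the summit at alc, Sesn, Wdr24 and Lkb1.

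Of the translation regulators among these 69 other genes, eIF4EHP had the summit of highest rank, 22, at 250 bp upstream of a start site. Its protein binds the cap in place of eIF4E, and its promoter is shared with CG18428. REPTOR, a transcription factor that TOR inhibits, ranked 305, pAbp, the poly(A)-binding protein, 2252, Atg13, which starts autophagy, 4247, and eIF4G2, an initiation factor, 5343, at a promoter shared with CG33111. The 13 pathway genes with intronic IDR summits included ImpL2 (rank 114), which binds insulin-like peptides, and Myc (219), a transcription factor that drives ribosome production. The strongest intronic summits of trbl, sgg and Atg1 ranked 582, 662 and 752. PRAS40, a component of the TOR complex, had 7 in introns, the strongest at rank 863, and SNF4Agamma 6, the strongest at 2093.

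**Figure D5:**
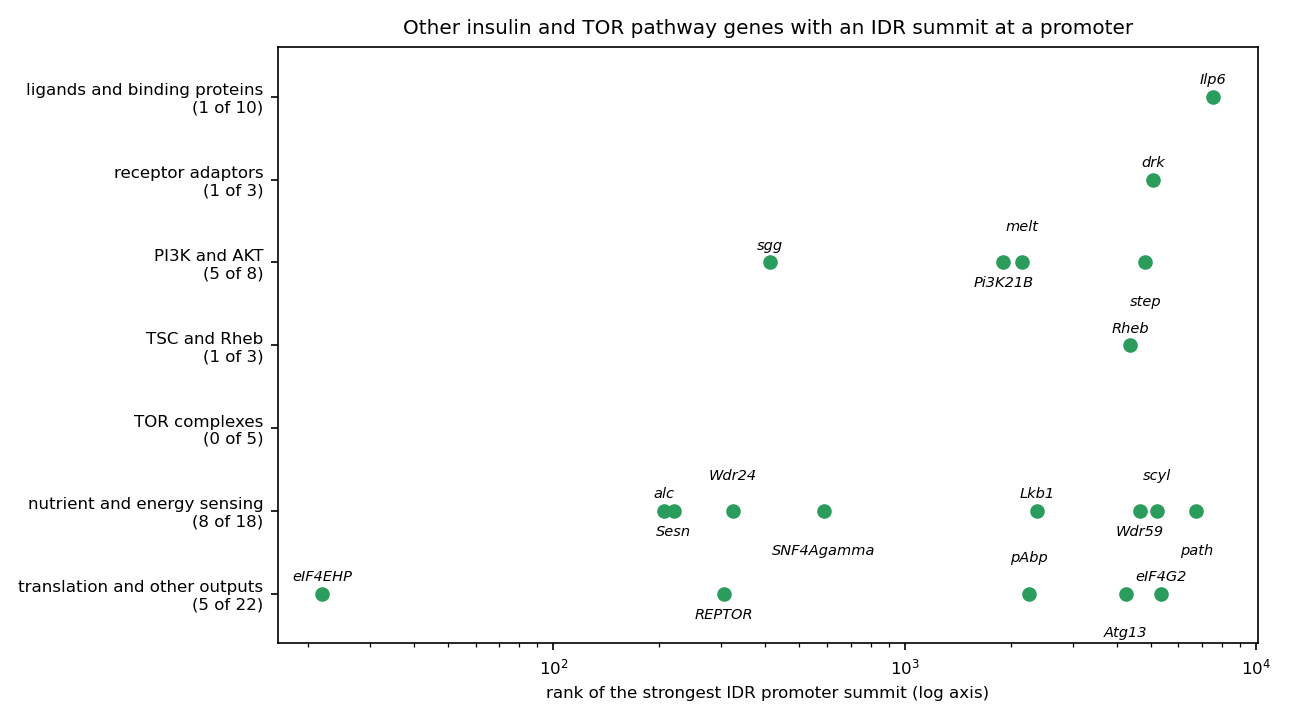
Rank of the strongest IDR promoter summit (horizontal, log axis) of the other pathway genes named in the text, by role (vertical), with the count of bound genes of those matched in brackets; 1 counted gene is not plotted. eIF4EHP stands alone near rank 22, and the TOR complexes have no such summit.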

How the data were processed

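ChIP-seq peak lists of 2 biological replicates of CG17806-GFP pupae were used, which form 1 group. Per the file descriptions that came with each sample, the authors called peaks on 1 alignment per replicate and on both together against a control, and made an IDR list from these, all on dm6. The caller, aligner, IDR threshold and depth were not given in the sources used here. The deposited signal per peak has no stated scale and served for ranks only. The deposited −log10 q-value was used to count weak calls. Positions came from the deposited interval start plus the offset of the summit in bp.

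Genes came from Ensembl release 115 and sequence from RefSeq, Release 6. Computed with Python 3.11.15 and NumPy 2.4.6 were the summit counts within 500 bp of start sites and in introns (over 500 bp from any start site, in no exon of the gene), partners within 100 bp, and words within 50 bp. The code that assigns summits to genes was run first on simulated peaks as a check of the code only. Nothing was tested between conditions, since there is 1 group. Members and lists were chosen with earlier results of these data known. All 9 members were named, with the pathway genes that have an IDR promoter summit, except 1 that is counted but not reported here, and the 3 genes nearest in rank to Lk6 and larp. The intronic peaks of ImpL2, Myc, trbl, sgg, Atg1, PRAS40 and SNF4Agamma were named after their values were seen. Of 70 pathway names 69 matched a gene, Tor being annotated as mTor and L taken as PRAS40 by its RefSeq synonym. Alternatives were other distances, the strongest 1911 IDR peaks, the pooled list, 1 replicate at a time, nearest start sites only and a wider word window.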

Additional observations from a re-analysis of the deposited data

How the results depend on the processing

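The number of the 9 genes with a promoter summit was 1 among the strongest 1911 IDR peaks and 7 in the pooled list, in place of 3. From the 7645 strongest peaks of 1 replicate alone it was 3 to 5, the 5 without replicate 2. With 250 bp, 1000 bp or the nearest start site only it was 2, 4 and 2, the last because Vha68-1 is nearer than Tor. The 21 other pathway genes became 8 in the strongest 1911 and 43 in the pooled list, and 16 to 26 from 1 replicate. Of all protein-coding genes 45.3% had a promoter summit in the pooled list. That share was not computed for the strongest 1911, for the 7645 strongest of 1 replicate, or at other distances or nearest start sites. The counts at those settings thus have no share of all genes to be read against. Intronic summits of the members, 13, became 7 and 78, and 13 to 16 from 1 replicate. Summits found in both replicates, 18, became 8 and 40. Shorter or longer lists give fewer or more by construction. With the remaining settings these counts stayed within 1.5 times of the main value. Best ranks of members were 13 to 16 for Lk6 and 14 to 19 for larp in the replicates, and 9384 to 23346 for Thor. No paired analysis was possible because there is only 1 group. Depth is unknown, so a missing peak does not show that a gene is unbound.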
